A study of Rattus norvegicus with 21 samples.

Results

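Acp5, Ctsk, Dcstamp, Atp6v0d2, Itgb3 and Calcr are genes by which osteoclasts, the bone-resorbing cells of the marrow lineage, are commonly recognised. They were taken as 6 named rows of the 9998 genes in the table. Of these, 5 were found by symbol, and Dcstamp was found by its NCBI gene ID, under which the table gives the symbol LOC103690326. The cells were rat bone marrow mesenchymal stem cells of WT genotype, the adherent stromal cells of the marrow. The 21 libraries of total RNA form 7 groups of 3. The groups SFSN-EC, SFSN-Ot, SFSN-TC, SFSN-FB, SFSN-Neu and SFSN-Adipo carried the treatment label SFSN and were named by the submitters after endothelial cells, osteoblasts, tendon cells, fibroblasts, neuron-like cells and adipocytes. Control carried no treatment. No group was named after osteoclasts, and the labels give no age, time or dose. The labels do not tell if the 3 libraries of a group are separate cultures, animals or neither, and p-values speak only of the spread among these libraries, and that spread may be technical.

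Osteoclasts form when precursors of the monocyte and macrophage lineage meet the growth factor M-CSF (Csf1) and the ligand RANKL, switch on the transcription factor NFATc1 and fuse into cells with many nuclei. The mature cell attaches to bone through the integrin of the alpha-v and beta-3 chains, pumps protons into the sealed space below it with a V-ATPase, and digests the matrix with cathepsin K. Ctsk encodes that protease. Acp5 encodes tartrate-resistant acid phosphatase. Atp6v0d2 encodes the d2 subunit of the membrane part of the proton pump and Dcstamp a membrane protein, both needed for full cell fusion in mice. Itgb3 encodes the beta-3 chain and Calcr the calcitonin receptor, through which calcitonin restrains resorption. Several of these genes are also used outside osteoclasts: Ctsk is made by fibroblasts and other stromal cells, and Acp5 by some macrophages.

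The promoter windows below show where the 2 resorption enzymes and Calcr start, and whether they hold the short motifs read by factors of osteoclast formation. RefSeq windows of the GRCr8 build, from 250 bases before to 50 bases after the start, were at hand for 3 of the 6 members, with 2 starts for Acp5. The motifs searched on both strands were the AP-1 site TGANTCA, present in 7.33% of all 33469 windows, the NFAT core GGAAA, in 62.7%, and the MITF-type E-box TCANGTGA, in 3.93%. No 2 of these motifs overlapped in the windows shown. Capitals mark the matches.
Acp5 start 1, chr8:28945881-28946180, minus strand: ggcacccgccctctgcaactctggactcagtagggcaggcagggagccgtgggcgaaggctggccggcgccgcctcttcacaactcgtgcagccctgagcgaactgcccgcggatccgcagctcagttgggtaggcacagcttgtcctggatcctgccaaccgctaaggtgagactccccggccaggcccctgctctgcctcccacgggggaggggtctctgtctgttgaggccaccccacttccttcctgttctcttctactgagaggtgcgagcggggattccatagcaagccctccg
Acp5 start 2, chr8:28943880-28944179, minus strand: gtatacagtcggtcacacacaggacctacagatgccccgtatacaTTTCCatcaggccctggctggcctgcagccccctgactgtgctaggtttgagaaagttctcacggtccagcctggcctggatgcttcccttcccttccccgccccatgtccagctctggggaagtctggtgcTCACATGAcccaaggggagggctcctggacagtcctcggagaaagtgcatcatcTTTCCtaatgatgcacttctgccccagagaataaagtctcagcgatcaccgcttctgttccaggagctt
Ctsk, chr2:185747298-185747597, plus strand: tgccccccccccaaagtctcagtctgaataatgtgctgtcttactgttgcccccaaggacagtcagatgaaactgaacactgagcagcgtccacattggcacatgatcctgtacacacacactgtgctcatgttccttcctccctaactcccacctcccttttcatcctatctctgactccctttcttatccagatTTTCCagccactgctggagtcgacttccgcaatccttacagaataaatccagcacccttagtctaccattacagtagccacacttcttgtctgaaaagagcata
Calcr, chr4:32691026-32691325, minus strand: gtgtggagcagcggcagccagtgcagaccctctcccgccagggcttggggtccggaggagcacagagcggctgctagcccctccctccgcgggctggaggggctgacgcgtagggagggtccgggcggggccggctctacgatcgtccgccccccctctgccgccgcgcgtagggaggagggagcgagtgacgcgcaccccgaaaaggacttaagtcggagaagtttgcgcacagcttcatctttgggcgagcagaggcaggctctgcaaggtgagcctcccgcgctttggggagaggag
Acp5 start 2 held the NFAT core at 205 and 19 bases before the start and the E-box at 73 bases before it. Ctsk held the NFAT core at 54 bases before the start. The windows of Acp5 start 1 and of Calcr held none of the 3 motifs. The GC content was 65.7% and 56.3% for the Acp5 starts, 48.3% for Ctsk and 69.3% for Calcr, against a median of 51.7% over all windows. A match is a description of the letters and not a bound site.

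Each library had 8113600 to 8934238 counts on the genes of the table, which runs in alphabetical order up to Map2k1 and made up 38.9% to 41.6% of a library by the deposited TPM. Genes later in the alphabet, among them several of osteoclasts, were not analysed here. Levels are given as CPM over the sum of the counts on the genes of the table with TMM scaling, and as TPM where genes are compared with each other, since TPM is per length. The low-count filter kept 6659 genes, among them Acp5, Ctsk, Atp6v0d2 and Itgb3. Dcstamp and Calcr fell under it. A gene was called at an adjusted p under 0.05 (edgeR quasi-likelihood test, Benjamini-Hochberg over the 6659 genes). Of the SFSN libraries 4 stood apart in the trend of their counts with gene length: SFSN-EC 1, SFSN-Ot 3, SFSN-FB 1 and SFSN-Neu 2. Their slopes were -0.137 to -0.056 on the log2 scale per doubling of length, against -0.036 to 0.078 in the other libraries. Results are given with and without them where they matter. The stromal markers were present throughout, with a summed level of 14474 to 21707 TPM over 11 genes in SFSN libraries and 20377 to 22772 TPM in Control.

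Against Control, the members moved in opposite directions. The protease Ctsk and the phosphatase Acp5 were modestly higher in most SFSN groups, the pump subunit Atp6v0d2 was lower in all 6, and the integrin chain Itgb3 was called in none. In SFSN-EC 2 members were higher and 1 lower, where 17.7% and 15.6% of all genes tested were called higher and lower. SFSN-Ot had 1 higher and 1 lower, with 20.2% and 19.3% of all genes. SFSN-TC had 1 higher and 1 lower, with 19.3% and 18.8%. SFSN-FB had 2 higher and 1 lower, with 21.5% and 21.2%. SFSN-Neu had 2 higher and 1 lower, with 20.1% and 17.9%. SFSN-Adipo had 1 higher and 1 lower, with 19.7% and 16.8%. In either direction 33.3% of the tested genes were called for SFSN-EC, 39.5% for SFSN-Ot, 38.1% for SFSN-TC, 42.7% for SFSN-FB, 38.1% for SFSN-Neu and 36.5% for SFSN-Adipo, and the 2 or 3 members called per group, of 4 tested, were not tested against these shares. No member was called higher in all 6 groups, as 8.5% of the tested genes were. The 6 comparisons share the same 3 Control libraries. In RNA from whole cultures, fewer cells of a type and less RNA per cell cannot be told apart.

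**Figure D1:**
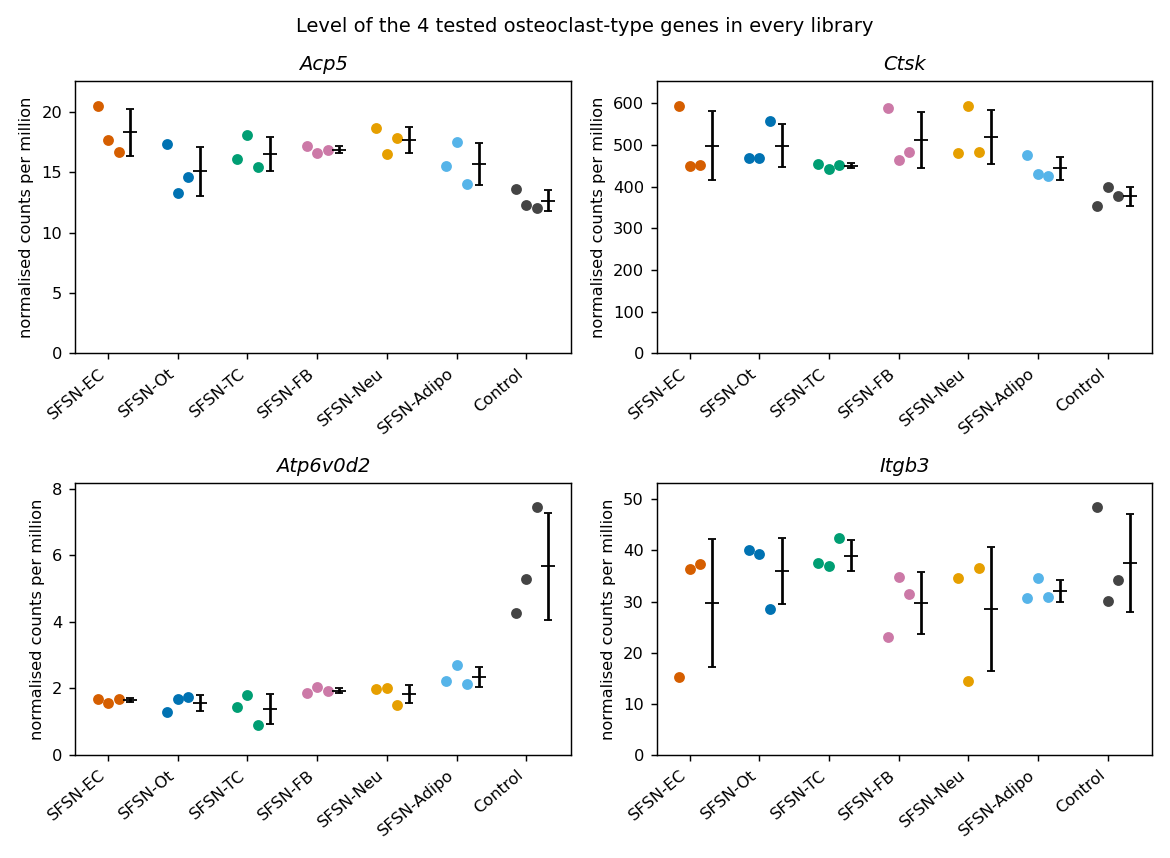
Level in CPM of Acp5, Ctsk, Atp6v0d2 and Itgb3 in each of the 21 libraries, with the mean and SD of each group beside its 3 points. All 18 SFSN libraries lie above Control for Ctsk and below Control for Atp6v0d2, while the Control points of Acp5 and Itgb3 overlap those of the SFSN groups.

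Ctsk was the most abundant member. Its level was 594, 449 and 451 CPM in SFSN-EC, 469, 468 and 558 CPM in SFSN-Ot, 455, 443 and 451 CPM in SFSN-TC, 588, 465 and 483 CPM in SFSN-FB, 481, 593 and 483 CPM in SFSN-Neu and 476, 430 and 426 CPM in SFSN-Adipo, against 353, 399 and 378 CPM in Control. All 18 SFSN libraries were above all 3 Control libraries, as was true of 9.81% of the genes tested. The log2 fold change was 0.40 ± 0.11 (SE) in SFSN-EC (adjusted p = 0.0102), 0.41 in SFSN-Ot (0.00826), 0.44 in SFSN-FB (0.00401) and 0.46 in SFSN-Neu (0.00342, edgeR in each case). These are folds of 1.32 to 1.38. It was 0.26 in SFSN-TC and 0.24 in SFSN-Adipo, with the same SE, and these missed the threshold at adjusted p = 0.084 and 0.112 (edgeR).

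The 4 libraries that stood apart were also the 4 with the highest Ctsk level, at 558 to 594 CPM, against 426 to 483 CPM in the other 14 SFSN libraries and 353 to 399 CPM in Control. Acp5 overlapped, with 14.6 to 20.5 CPM in the 4 libraries and 13.3 to 18.7 CPM in the other 14, as did Atp6v0d2, with 1.69 to 2 CPM in the 4 and 0.893 to 2.7 CPM in the other 14. Itgb3 was lower, with 14.5 to 28.5 CPM in the 4 and 30.7 to 42.4 CPM in the other 14. Among the lengths of the genes tested Ctsk stood at the 18.3 percentile, Acp5 at 22.8, Atp6v0d2 at 15.4 and Itgb3 at 40.7. Without the 4 libraries Ctsk was called higher in all 6 groups, at log2 fold changes of 0.24 to 0.36 with SEs of 0.04 to 0.05 and adjusted p from 2.35e-05 to 0.000557 (edgeR). With the length trend of each library taken out it was also called in all 6, at 0.25 to 0.42. The calls in SFSN-EC and SFSN-Ot were lost when SFSN-EC 1 (0.26, adjusted p = 0.0604, edgeR) or SFSN-Ot 3 (0.31, adjusted p = 0.0551, edgeR) was left out alone.

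Among the cathepsins, Ctsk stood at a middle level per length. In TPM it averaged 326 to 357 over the SFSN groups and 238 ± 7.97 in Control (SD, n = 3). The general lysosomal proteases stood higher: Ctsl averaged 1310 to 1563 TPM in SFSN groups and 876 ± 20.7 TPM in Control, and Ctsb 854 to 984 TPM in SFSN groups and 829 ± 9.55 TPM in Control. Ctsd averaged 488 to 562 TPM in SFSN groups and 504 ± 4.58 TPM in Control. These relatives were chosen to set the scale, after their values were seen. Of 15 tested cathepsins and cystatins other than Ctsk, 5 to 8 were higher and 1 to 5 lower per group, with a median log2 fold change of -0.18 to 0.27, where all genes tested had 0.00 to 0.02. Without the 4 libraries that stood apart 4 to 8 were higher and 3 to 7 lower, with SFSN-EC at 4 higher and 7 lower, against 5 and 2 with them. By total-count scaling 5 to 10 were higher and 0 to 2 lower. Ctsc, which activates granule proteases of leukocytes, rose in all 6 groups by 0.47 to 0.92. Cst7, a cystatin, rose in all 6 by 0.82 to 1.65. Its SFSN-EC call was lost without SFSN-EC 1 (0.64, adjusted p = 0.0628, edgeR) and its SFSN-TC call without SFSN-TC 3 (0.61, 0.0872) or Control 3 (0.72, 0.0545). Ctss, the cathepsin of antigen-presenting cells, rose in 4 groups, from 0.44 in SFSN-Ot to 1.31 in SFSN-Neu, and its SFSN-Ot call was lost without SFSN-Ot 3 (0.31, adjusted p = 0.0956, edgeR) or Control 1 (0.38, 0.0614).

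Acp5 was higher in 5 of the 6 SFSN groups. Its level was 20.5, 17.7 and 16.7 CPM in SFSN-EC, 17.3, 13.3 and 14.6 CPM in SFSN-Ot, 16.1, 18.1 and 15.4 CPM in SFSN-TC, 17.2, 16.6 and 16.8 CPM in SFSN-FB, 18.7, 16.5 and 17.8 CPM in SFSN-Neu and 15.5, 17.5 and 14 CPM in SFSN-Adipo, against 13.6, 12.3 and 12 CPM in Control. Only SFSN-Ot 2 fell inside the Control range. The log2 fold change was 0.53 ± 0.11 in SFSN-EC (adjusted p = 0.00123), 0.48 in SFSN-Neu (0.0025), 0.42 in SFSN-FB (0.00646), 0.39 in SFSN-TC (0.0118) and 0.31 in SFSN-Adipo (0.0418), all by edgeR. In SFSN-Ot, the group named after osteoblasts, it was 0.26 ± 0.11 and not called (adjusted p = 0.0862, edgeR).

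The SFSN-Adipo call of Acp5 was the least secure. DESeq2 gave an adjusted p of 0.0932 for it, and it was lost without SFSN-Adipo 1 (0.0733, edgeR), SFSN-Adipo 2 (0.194), Control 2 (0.0963) or Control 3 (0.118). The SFSN-TC call was lost without SFSN-TC 2 (adjusted p = 0.0577, edgeR), and SFSN-Ot was called without SFSN-Ot 2 (0.34, adjusted p = 0.0394, edgeR). Per length, Acp5 averaged 9.37 to 11.2 TPM in SFSN groups and 7.32 ± 0.325 TPM in Control (SD, n = 3). Acp2, the lysosomal acid phosphatase of most cells, stood several times higher, at 66.1 to 72.6 TPM in SFSN groups and 50.7 ± 0.755 TPM in Control. Acp2 rose in all 6 groups by 0.21 to 0.36 on the log2 scale, with an SFSN-Adipo call that was lost without SFSN-Adipo 1, SFSN-Adipo 2 or Control 1 (adjusted p = 0.0645, 0.0532 and 0.0701, edgeR). Acp6 was called higher in SFSN-TC (0.35) and SFSN-Neu (0.44). The Acp6 call in SFSN-TC was lost without SFSN-TC 1, SFSN-TC 3, Control 1 or Control 2 (adjusted p = 0.0817 to 0.184, edgeR) and that in SFSN-Neu without SFSN-Neu 2 (0.0557). Acp1 was called in none, at -0.14 to -0.01.

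Atp6v0d2 gave the largest fold changes of the members. Its level was 1.69, 1.57 and 1.68 CPM in SFSN-EC, 1.3, 1.67 and 1.74 CPM in SFSN-Ot, 1.44, 1.8 and 0.893 CPM in SFSN-TC, 1.86, 2.03 and 1.92 CPM in SFSN-FB, 1.97, 2 and 1.51 CPM in SFSN-Neu and 2.22, 2.7 and 2.14 CPM in SFSN-Adipo, against 4.28, 5.29 and 7.44 CPM in Control. No SFSN library reached the lowest Control library, as was true of 11.2% of the genes tested. These levels rest on 8 to 24 counts per SFSN library and 34 to 59 per Control library. The log2 fold change was -2.03 ± 0.24 in SFSN-TC (adjusted p = 2.32e-06), -1.84 ± 0.24 in SFSN-Ot (6.73e-06), -1.78 ± 0.23 in SFSN-EC (1.06e-05), -1.62 ± 0.23 in SFSN-Neu (2.04e-05), -1.54 ± 0.23 in SFSN-FB (3.06e-05) and -1.27 ± 0.22 in SFSN-Adipo (0.000219), all by edgeR. The levels in Control were thus 2.4 to 4.08 times those in the SFSN groups. Every alternative tried kept all 6 calls. Atp6v0d2 was 1 of the 8.97% of tested genes called lower in all 6 groups.

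The d2 chain was a small part of the d subunit transcripts in every library. The alternative form of the d subunit, Atp6v0d1, which is used by cells in general, averaged 177 to 183 TPM in SFSN groups and 194 ± 9.8 TPM in Control (SD, n = 3). Atp6v0d2 averaged 1.16 to 1.93 TPM in SFSN groups and 3.97 ± 1.02 TPM in Control. Atp6v0d2 made up 0.637% to 1.05% of the sum of both in the SFSN groups and 2 ± 0.459% in Control. Atp6v0d1 was called lower in SFSN-TC (-0.36 ± 0.12, adjusted p = 0.0248, edgeR) and SFSN-Adipo (-0.31 ± 0.12, adjusted p = 0.0475, edgeR) and in no other group. Leaving out 1 of the libraries of SFSN-TC or Control 2 or 3 ended the SFSN-TC call of Atp6v0d1 (adjusted p = 0.057 to 0.106, edgeR), leaving out any 1 of 13 libraries ended the SFSN-Adipo call (0.0528 to 0.171), and total-count scaling ended both (-0.16 and -0.11). Of 19 tested genes of the V-ATPase other than Atp6v0d2, 0 to 1 were higher and 1 to 9 lower per group, with a median of -0.20 to -0.10. The lower calls numbered 8 to 12 without the 4 libraries that stood apart. Of the genes called in either direction, the 10 of SFSN-TC became 3 without Control 2, 5 without Control 3, SFSN-TC 1 or SFSN-TC 2 and 6 without SFSN-TC 3. The 4 of SFSN-EC became 9 without SFSN-EC 1, 2 without SFSN-EC 2 or Control 1 and 1 without Control 2 or Control 3. Without SFSN-EC 1 the 3 of SFSN-Ot became 7, the 2 of SFSN-FB 4, the 1 of SFSN-Neu 3 and the 5 of SFSN-Adipo 9. By total-count scaling, which moves the median of all genes to 0.16 to 0.22, the list's median was -0.01 to 0.08, with 1 to 4 higher and 0 to 2 lower. Atp6v1c2, a subunit of the soluble part, was lower in all 6 groups (-0.67 to -0.52). Its SFSN-EC call was lost without SFSN-EC 2, SFSN-EC 3, Control 2 or Control 3 (adjusted p = 0.0514 to 0.123, edgeR), its SFSN-FB call without SFSN-FB 3 (0.0542) and its SFSN-Adipo call without Control 2 (0.0575). Atp6v0a4, a membrane subunit known from kidney, rose in SFSN-EC (1.03), SFSN-TC (1.24) and SFSN-Adipo (1.20), with an SFSN-EC call that was lost without SFSN-EC 2, Control 1 or Control 2 (adjusted p = 0.0725 to 0.12, edgeR).

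Dcstamp was near the limit of detection in every group. It had 3, 7 and 4 counts in SFSN-EC, 2, 3 and 3 counts in SFSN-Ot, 2, 2 and 2 counts in SFSN-TC, 6, 3 and 3 counts in SFSN-FB, 7, 3 and 6 counts in SFSN-Neu and 3, 8 and 2 counts in SFSN-Adipo, against 5, 4 and 4 counts in Control. Dcstamp was not tested, and the 2 to 3 counts of SFSN-Ot and SFSN-TC against 4 to 5 in Control are too few to read as a difference. The mean was 0.44 ± 0.228 CPM in SFSN libraries (SD, n = 18) and 0.546 ± 0.0726 CPM in Control (SD, n = 3). Summed over libraries it had 69 counts, or 0.448 CPM before TMM, in SFSN libraries and 13 counts, or 0.487 CPM before TMM, in Control. The ratio of these sums, SFSN over Control, was 0.919, with an exact binomial 95% interval of 0.504 to 1.81 that covers counting error only. The sums pool the SFSN groups, and the interval leaves out the spread among libraries and groups, so it sets no detection limit.

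**Figure D2:**
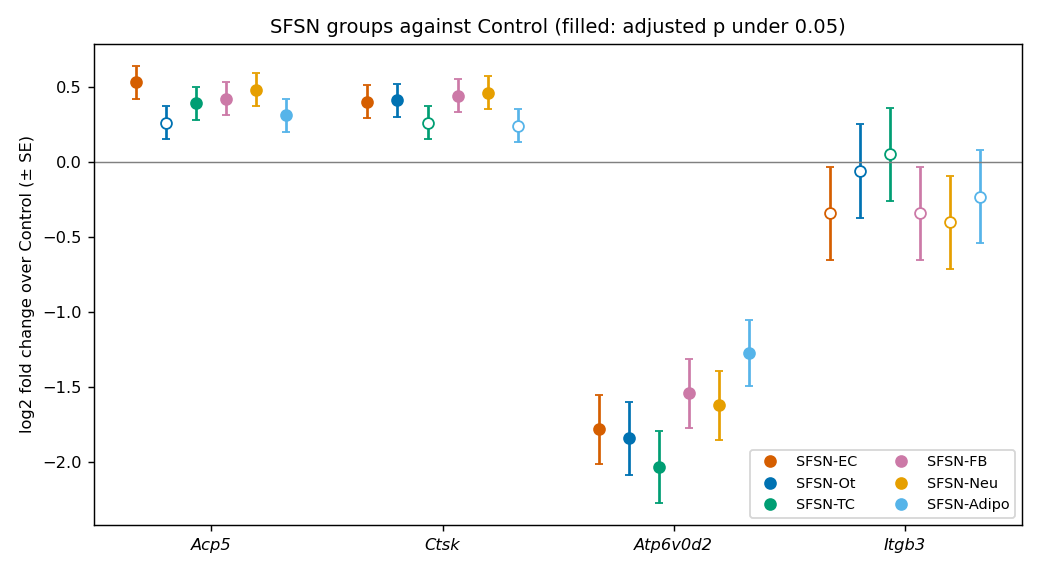
Log2 fold change over Control (y axis, ± SE) of each tested member in the 6 SFSN groups, with filled points for an adjusted p under 0.05. Acp5 and Ctsk lie between 0.24 and 0.53, Atp6v0d2 between -2.03 and -1.27, and Itgb3 around 0 with wider errors.

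Itgb3 was not called in any group. Its level was 15.2, 36.4 and 37.4 CPM in SFSN-EC, 40.1, 39.3 and 28.5 CPM in SFSN-Ot, 37.6, 36.9 and 42.4 CPM in SFSN-TC, 23, 34.8 and 31.5 CPM in SFSN-FB, 34.6, 14.5 and 36.5 CPM in SFSN-Neu and 30.7, 34.6 and 30.9 CPM in SFSN-Adipo, against 48.4, 30.1 and 34.2 CPM in Control. The lowest library of SFSN-EC, SFSN-Ot, SFSN-FB and SFSN-Neu was in each case the one that stood apart. The log2 fold change ran from -0.40 in SFSN-Neu to 0.05 in SFSN-TC with an SE of 0.31, and adjusted p from 0.35 to 0.907 (edgeR). Without the 4 libraries it ran from -0.23 to 0.08 with SEs of 0.13 to 0.14 and adjusted p from 0.155 to 0.903 (edgeR). Taking out the length trend left it at -0.41 to 0.05.

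**Figure D3:**
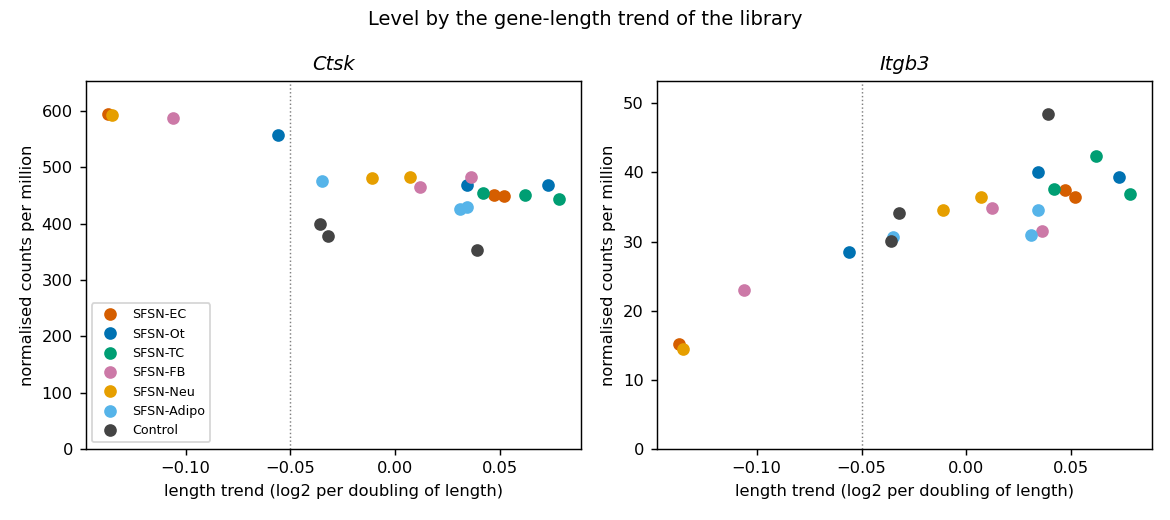
Level of Ctsk and Itgb3 (CPM) against the gene-length trend of each library (log2 per doubling of length), with a dotted line at the limit of -0.05. The 4 SFSN libraries left of the line hold Ctsk at 558 to 594 CPM and Itgb3 at 14.5 to 28.5 CPM, above and below the other 14 SFSN libraries.

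The partner chain of beta-3, Itgav, was far more abundant. Itgav averaged 66.2 to 82.3 TPM in SFSN groups and 79.9 ± 7.85 TPM in Control, against 12 to 17.4 TPM in SFSN groups and 14.3 ± 4.25 TPM in Control for Itgb3 (SD, n = 3). Of the other beta chains that pair with alpha-v, Itgb1 and Itgb5 stood higher than Itgb3. Itgb8, a further such chain, was among the genes tested, and its level is not given here. Itgb1 averaged 1269 to 1534 TPM in SFSN groups and 1930 ± 164 TPM in Control. Itgb5 averaged 155 to 181 TPM in SFSN groups and 170 ± 1.92 TPM in Control. Itgb6 fell under the low-count filter, with 1 to 6 counts per library in SFSN groups and in Control. Itga2b, the platelet partner of beta-3, averaged 0.107 to 0.22 TPM in SFSN groups and 0.133 ± 0.00577 TPM in Control. Itgb1 fell in all 6 groups by -0.73 to -0.51 on the log2 scale, and on log2(TPM + 1) its call in SFSN-TC was lost (-0.33, adjusted p = 0.0653, limma). Itgav was called lower in SFSN-EC (-0.33), SFSN-Neu (-0.39) and SFSN-Adipo (-0.35). These 3 calls were lost by total-count scaling, on log2(TPM + 1) and without Control 1 (adjusted p = 0.0804 to 0.138, edgeR). With Control 1 counted, any of 12 single libraries left out ended the SFSN-EC call (adjusted p = 0.0516 to 0.192, edgeR). Any of 6 ended the SFSN-Adipo call of Itgav (0.0521 to 0.111), and either of 2 the SFSN-Neu call (0.0804 and 0.0926). Itgb2, the beta chain of leukocytes, rose in all 6 groups by 0.23 to 0.86. Its calls in SFSN-EC, SFSN-Ot and SFSN-TC were lost without Control 1 (adjusted p = 0.054, 0.115 and 0.0565, edgeR). With Control 1 counted, 2 single libraries ended the SFSN-EC call (0.054 and 0.11). For SFSN-Ot it was 4 (0.0888 to 0.128) and for SFSN-TC 3 (0.0565 to 0.077). DESeq2 did not make the SFSN-Ot call of Itgb2 (adjusted p = 0.0612). Of the 8 tested genes of this list 1 to 2 were higher and 2 to 3 lower per group, and by total-count scaling 2 to 3 were higher and 1 lower. Of the 4 called in SFSN-Ot 2 were left without SFSN-Ot 1, SFSN-Ot 3 or any Control library, of the 3 in SFSN-EC 1 without Control 1, and of the 4 in SFSN-TC 2 without SFSN-TC 2.

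Calcr was listed at 0 counts in 20 of the 21 libraries and at 1 count in SFSN-Adipo 2. A count of 0 in the 3 Control libraries allows up to 0.11 CPM before TMM. The related receptor Calcrl, which binds CGRP and adrenomedullin with its partner proteins, averaged 2.5 to 3.44 TPM in SFSN groups and 2.32 ± 0.183 TPM in Control (SD, n = 3) and was called in no group (-0.06 to 0.37). Of the ligands, Calca had 0 to 3 counts per SFSN library and 0 in Control, and Adm was called in no group (-0.46 to 0.42). Adm2 was called lower in SFSN-TC (-0.86, adjusted p = 0.0218, edgeR), a call that was lost without SFSN-TC 2, SFSN-TC 3, Control 2 (-0.54) or Control 3. Crcp was called higher in SFSN-Neu (0.33, adjusted p = 0.0484, edgeR), a call that DESeq2 did not make (0.0532) and that was lost without any of 14 single libraries.

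Among the 6 SFSN groups themselves no member was called. In a joint test of any difference among them, where 34.1% of all genes were called, edgeR gave adjusted p of 0.308 for Acp5, 0.402 for Ctsk, 0.254 for Atp6v0d2 and 0.743 for Itgb3. None of the 4 had an unadjusted p under 0.05, and DESeq2 called 0. Set against the average of the 5 other SFSN groups, 0 members were called in any group, with 6.01% of all genes called for SFSN-EC, 15% for SFSN-Ot, 15.6% for SFSN-TC, 24.2% for SFSN-FB, 12.2% for SFSN-Neu and 10.5% for SFSN-Adipo. The nearest was Atp6v0d2 in SFSN-Adipo, at 0.50 (adjusted p = 0.121, edgeR), the 1 member value with an unadjusted p under 0.05. Of the 60 member and pair combinations over 15 pairs of SFSN groups 0 were called, against 13.6% of all gene and pair combinations.

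The pair with the largest difference in Atp6v0d2 was SFSN-TC against SFSN-Adipo, at -0.76 (95% interval -1.31 to -0.22, adjusted p = 0.11, edgeR). For Acp5 it was SFSN-EC against SFSN-Ot, at 0.28 (0.04 to 0.51, adjusted p = 0.12, edgeR), and for Ctsk SFSN-Neu against SFSN-Adipo, at 0.22 (-0.02 to 0.47, adjusted p = 0.3, edgeR). For Itgb3 it was SFSN-TC against SFSN-Neu, at 0.45 (-0.22 to 1.12, adjusted p = 0.355, edgeR). A missed threshold does not show that the groups were alike.

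The order of the group means therefore has few firm steps. Acp5 ran SFSN-EC (18.3 ± 2 CPM, SD), SFSN-Neu (17.7 ± 1.11), SFSN-FB (16.9 ± 0.316), SFSN-TC (16.5 ± 1.4), SFSN-Adipo (15.7 ± 1.78), SFSN-Ot (15.1 ± 2.04) and Control (12.6 ± 0.853 CPM). Ctsk ran SFSN-Neu (519 ± 64.1 CPM), SFSN-FB (512 ± 66.1), SFSN-Ot (498 ± 51.8), SFSN-EC (498 ± 83.3), SFSN-TC (450 ± 6.54), SFSN-Adipo (444 ± 28) and Control (376 ± 23.1 CPM). No neighbours in these orders of Acp5 and Ctsk differed by edgeR. Atp6v0d2 ran SFSN-TC (1.38 ± 0.457 CPM), SFSN-Ot (1.57 ± 0.237), SFSN-EC (1.65 ± 0.0694), SFSN-Neu (1.83 ± 0.273), SFSN-FB (1.94 ± 0.0863), SFSN-Adipo (2.35 ± 0.301) and Control (5.67 ± 1.61 CPM), and of its neighbours SFSN-Adipo and Control differed. Itgb3 ran from SFSN-TC (39 ± 3.02 CPM) to SFSN-Neu (28.5 ± 12.2 CPM) with Control (37.5 ± 9.59 CPM) in the second place, and no neighbours differed.

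The signals that drive osteoclast formation moved in both directions. Of 20 tested genes of osteoclast signals and factors, 6 to 11 were higher and 3 to 5 lower per group, with a median log2 fold change of 0.08 in SFSN-TC to 0.58 in SFSN-FB. By total-count scaling 8 to 14 were higher and 2 to 3 lower. Csf1, the M-CSF ligand, fell in all 6 groups: it averaged 916 to 1126 CPM in SFSN groups and 1787 ± 50.9 CPM in Control (SD, n = 3), at -0.96 to -0.67 ± 0.03 on the log2 scale. Its receptor Csf1r, carried by osteoclast precursors and macrophages, rose in 5 groups. Csf1r averaged 262 ± 2.09 CPM in SFSN-Neu, 210 ± 12.9 CPM in SFSN-FB, 167 ± 5.69 CPM in SFSN-Ot, 146 ± 4 CPM in SFSN-Adipo and 111 ± 1.95 CPM in SFSN-EC, against 91.3 ± 3.09 CPM in Control. In SFSN-TC it was lower, at 75.3 ± 2.69 CPM (-0.28 ± 0.05, adjusted p = 0.000217, edgeR), a call lost by total-count scaling (-0.08, adjusted p = 0.183, edgeR).

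Fos, a part of AP-1 that osteoclast precursors need in mice, rose in all 6 groups by 1.32 to 2.95, while the related Fosl1 fell in all 6 by -1.93 to -0.86. Il1b, a cytokine that promotes resorption, rose in all 6 by 0.47 to 1.37, and its SFSN-Ot call was lost with DESeq2 (0.46, adjusted p = 0.0784) and without SFSN-Ot 1, SFSN-Ot 2, Control 1 or Control 3 (adjusted p = 0.0513 to 0.0903, edgeR). Of 8 tested genes of the resorption and fusion machinery, 1 to 2 were higher and 2 to 3 lower per group. The balance depended on the scaling, with 2 to 3 higher and 1 to 2 lower by total-count scaling and 2 to 4 higher and 0 to 1 lower on log2(TPM + 1). Without the 4 libraries that stood apart 1 to 3 were higher and 2 to 5 lower. Adam8, a membrane protease of leukocytes and osteoclasts, rose in 5 groups by 0.60 to 1.77 and was lower in SFSN-TC (-0.47, adjusted p = 0.000699, edgeR), where on log2(TPM + 1) the call was lost (-0.15, adjusted p = 0.193, limma). The adhesion receptor Cd44 fell in all 6 groups by -0.66 to -0.32, with a call in SFSN-Ot that was lost on log2(TPM + 1) (-0.17, adjusted p = 0.076, limma). Cttn, of the same list, was called lower in all 6 groups at -0.32 to -0.19. Total-count scaling ended its calls in SFSN-EC, SFSN-TC and SFSN-Adipo (adjusted p = 0.282 to 0.994, edgeR). On log2(TPM + 1) all 6 Cttn calls were lost (adjusted p = 0.0529 to 0.773, limma).

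**Figure D4:**
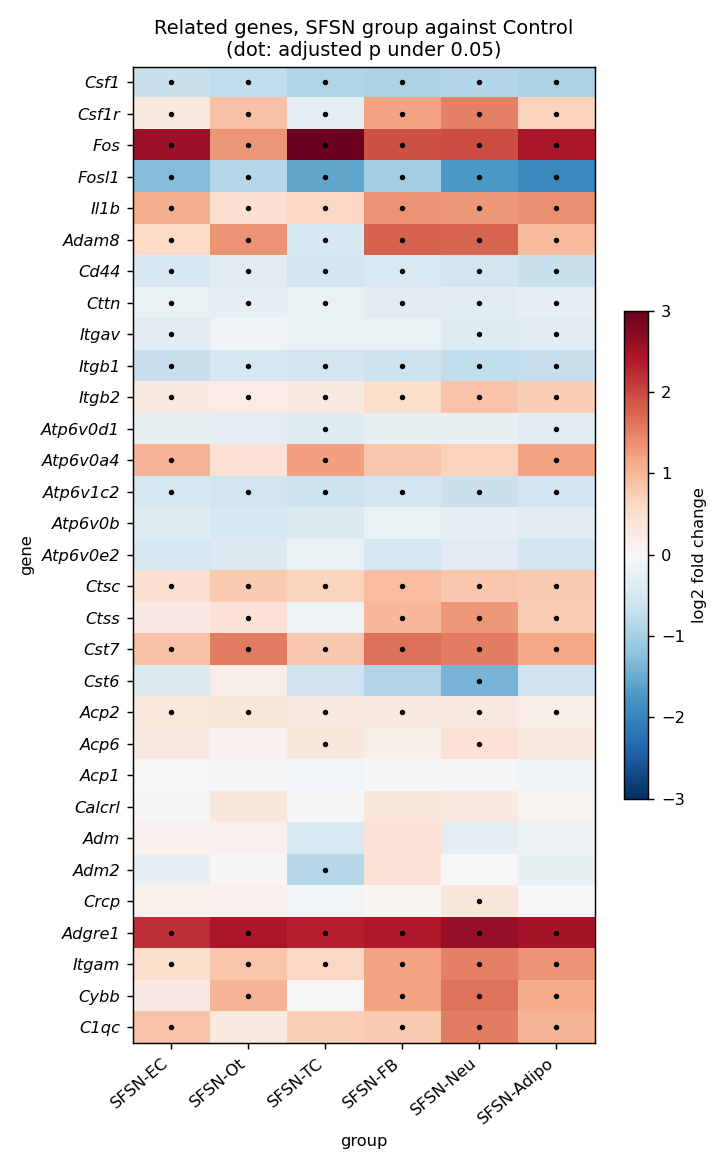
Log2 fold change over Control (colour) of 31 genes of the same pathways and families in the 6 SFSN groups, with a dot where the adjusted p was under 0.05. Csf1, Fosl1, Itgb1 and Cd44 are lower in all 6 groups, Fos, Ctsc and Adgre1 higher in all 6, and Csf1r and Adam8 are lower in SFSN-TC alone.

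Macrophages share precursors with osteoclasts, and the summed level of their markers in TPM was above Control in every SFSN group. On log2(TPM + 1) the median of all genes tested was also above Control, by 0.10 in SFSN-Neu to 0.19 in SFSN-TC and SFSN-Adipo. The sum was not tested against that shift. The summed level over 26 genes was 1072 to 1101 TPM in SFSN-EC, 975 to 1004 in SFSN-Ot, 1043 to 1106 in SFSN-TC, 1228 to 1317 TPM in SFSN-FB, 1577 to 1619 in SFSN-Neu and 1481 to 1575 TPM in SFSN-Adipo, against 846 to 862 TPM in Control. The lysozyme gene Lyz2 was the largest single part of this sum, at 513 to 957 TPM on average in SFSN groups and 526 ± 5.06 TPM in Control (SD, n = 3). Cd68 averaged 22 TPM in SFSN-EC, 18.3 TPM in SFSN-Ot, 21.1 TPM in SFSN-TC, 24.6 TPM in SFSN-FB, 32.8 TPM in SFSN-Neu and 31.9 TPM in SFSN-Adipo, against 23.6 ± 0.961 TPM in Control. Lyz2 and Cd68 were picked after their values were seen. Of 24 tested, 9 were higher and 1 lower for SFSN-EC, 11 and 3 for SFSN-Ot, 4 and 8 for SFSN-TC, 12 and 2 for SFSN-FB, 18 and 0 for SFSN-Neu and 15 and 0 for SFSN-Adipo. In SFSN-TC the balance turned with the scaling, to 7 higher and 3 lower by total-count scaling and 9 higher and 3 lower on log2(TPM + 1). For SFSN-EC 6 were called without Control 1 and 5 without Control 3. Adgre1, which encodes the macrophage surface protein F4/80, rose in all 6 groups, with 67.7 to 90.1 CPM in SFSN groups and 14.7 ± 1.69 CPM in Control, and Itgam rose in all 6 by 0.53 to 1.52, with an SFSN-EC call that was lost without Control 3 (0.41, adjusted p = 0.0664, edgeR). Cybb, a subunit of the oxidase of phagocytes, rose in 4 groups, by 1.01 in SFSN-Ot to 1.63 in SFSN-Neu, and stood at 0.24 in SFSN-EC and 0.00 in SFSN-TC without a call. C1qc, a complement chain made by macrophages, rose in SFSN-EC (0.86), SFSN-FB (0.78), SFSN-Neu (1.54) and SFSN-Adipo (1.01), and was not called in SFSN-Ot (0.26) or SFSN-TC (0.72, adjusted p = 0.061, edgeR). Its SFSN-EC call was lost without SFSN-EC 1, SFSN-EC 3, Control 2 or Control 3 (adjusted p = 0.0696 to 0.117, edgeR), its SFSN-FB call without SFSN-FB 1, SFSN-FB 3, Control 2 or Control 3 (0.0815 to 0.139) and its SFSN-Adipo call without SFSN-Adipo 2 or Control 3 (0.0525 and 0.0538). Atp6v0d2 was lower in all 6 groups while this sum in TPM was higher, though in SFSN-TC the calls of single markers depended on the scaling. Cd163 and Cd52 had 0 to 1 counts per SFSN library and 0 in Control. The part of these cells in the levels of Acp5, Ctsk and Atp6v0d2 was not tested.

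Osteoblast markers moved in both directions, with a median above that of all genes tested. Of 8 tested 2 to 4 were higher and 1 to 2 lower per group. Their median log2 fold change was 0.34 to 0.66, where all genes tested had 0.00 to 0.02. Ibsp, a bone matrix protein made by osteoblasts and also by osteoclasts, averaged 161 to 293 CPM in SFSN groups and 8.06 ± 0.379 CPM in Control, and Alpl rose in all 6 groups by 1.31 to 1.83. Dmp1 was called higher in 5 groups, with 0.34 to 1.55 over all 6. Its SFSN-Neu call was lost without any of 4 single libraries (adjusted p = 0.0556 to 0.111, edgeR). Ifitm5 was called in no group (0.04 to 1.08). Col1a1, the main collagen of bone and of other connective tissue, averaged 8346 to 9885 TPM in SFSN groups and 9607 ± 458 TPM in Control (SD, n = 3). It was named in addition to the genes of the list with the largest mean fold change. Of 11 stromal markers 1 to 2 were higher and 5 to 6 lower, and by total-count scaling 2 to 5 were higher and 4 to 5 lower. Lum rose in all 6 groups (0.48 to 0.87), and Cxcl12 fell in all 6 (-0.99 to -0.71).

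For each tested member the 3 genes with the most similar pattern over the 21 libraries were found by the root mean square difference in centred log2 CPM among 5626 genes. For Ctsk these were Itm2b at 0.05, Gtf2b at 0.07 and Ik at 0.08, where the median of all candidates was 0.28. For Acp5 they were Csnk1e at 0.12, Lrrc42 at 0.13 and Ccne1 at 0.13, with the same median. For Atp6v0d2 they were Hsd11b1 at 0.25, Bmp4 at 0.28 and Ecm1 at 0.29, with a median of 0.64. Bmp4, a growth factor of bone formation, averaged 20.5 CPM in SFSN libraries and 60.5 CPM in Control. Hsd11b1, which regenerates active glucocorticoid, averaged 58.4 CPM in SFSN libraries and 141 CPM in Control. For Itgb3 they were Creb3l2 at 0.13, Afap1 at 0.13 and Itpripl2 at 0.14, with a median of 0.47. None of these 12 genes is a member of the lists used here.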

How the data were processed

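Total RNA of 21 libraries was quantified by the authors. Per the file headers and the readme deposited with the table, reads were filtered with SOAPnuke 2.2.1, aligned with HISAT2 2.2.1 and Bowtie2 2.4.5 (at most 200 alignments for a read), and RSEM 1.3.1 quantified them (forward probability 0, the reverse-stranded setting). The submitters' processing notes name Rnor_6.0 and DESeq2 1.34.0. The deposited table gives the expected counts of RSEM per gene and library and, per the file headers, the TPM over the whole library. Of the nonzero expected counts 84.4% were whole, and all were rounded here. Of the 9998 genes 233 had no count, and 26 symbols had turned into dates. Reads shared between near-identical genes were split by RSEM.

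Counts were fitted in edgeR 4.0.16 (R 4.3.3) with all 21 libraries, 1 mean per group, TMM scaling and filterByExpr (biological coefficient of variation 11.8%, with 14 residual degrees of freedom). Each SFSN group was set against Control, against the average of the 5 other SFSN groups and against every single one of them. SEs are absolute log2 fold changes over the square root of F. Alternatives were other size factors, total-count scaling, no filter, DESeq2 1.42.0, limma 3.58.1 on log2(TPM + 1) and log2(TPM + 0.1), fits of the compared groups only, a replicate block, and leaving out each library. Leaving out the 4 libraries that stood apart and taking out the length trend were added after seeing the data. Same-numbered libraries of different groups had correlated deviations no more often at the median than others (63 pairs, correlations -0.39 to 0.46, median 0.01). The median of other-numbered pairs was 0.01 as well. Of the 63 same-numbered pairs 17 had a correlation over 0.1. Replicate pairs differed beyond sampling noise (chi-square per degree of freedom 2.16 to 42.58 over 21 pairs). The method was tested on simulated data.

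Members and the 10 gene lists (165 distinct genes, 125 in the table) were chosen with earlier results of these data known. Genes named are the members, Csf1, Csf1r, Itgav, Calcrl and Atp6v0d1, up to 4 genes per list with the largest mean fold change, and the 3 most similar genes per member with at least 5 CPM in their highest group; 1 gene that this rule names is not reported here. The interval of the Dcstamp ratio and the floors (3 counts) cover counting error only. The intervals for pairs of SFSN groups rest on the edgeR SEs, which include the spread among libraries.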

Additional observations from a re-analysis of the deposited data

How the results depend on the processing

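Over 31 alternatives (21 that leave out a library, 8 other planned, 2 added after seeing the data) 1460 of 1488 member values kept their direction and their side of the threshold, 10 lost a call, 18 gained one and 0 called values changed sign. Between values that were not called, 40 member values changed sign. Against Control, 3 members were called in SFSN-EC (2 to 3 when a library was left out), 2 in SFSN-Ot (1 to 3), 2 in SFSN-TC (1 to 3) and 2 in SFSN-Adipo (1 to 2), while SFSN-FB and SFSN-Neu stayed at 3. SFSN-Adipo had 1 with no low-count filter and 1 with DESeq2, where Acp5 was lost. Ctsk in SFSN-TC and SFSN-Adipo and Acp5 in SFSN-Ot were called by total-count scaling (adjusted p = 0.00442, 0.00476 and 0.00772, edgeR), which moves the median of all genes by 0.16 to 0.22. Over all alternatives the adjusted p of Acp5 was 0.00137 to 0.194 in SFSN-Adipo, 0.000493 to 0.0577 in SFSN-TC and 0.00772 to 0.381 in SFSN-Ot, and that of Ctsk 4.91e-07 to 0.0604 in SFSN-EC, 1.97e-07 to 0.0551 in SFSN-Ot, 7.72e-07 to 0.208 in SFSN-TC and 2.72e-06 to 0.289 in SFSN-Adipo (edgeR, DESeq2 and limma). With the length trend taken out, SFSN-Adipo had 1 member called against the other SFSN groups (Ctsk, -0.14, adjusted p = 0.0477, edgeR), and 2 pair combinations were called, against 0. Leaving out 1 library gave 0 to 1 pair combinations, the 1 without SFSN-Ot 1. With the replicate block 3 members were called in SFSN-EC, and it changed no member call. It gave 2116 genes called in SFSN-EC over all genes, against 2215 without it. The median correlation of same-numbered libraries gave no sign of a pairing by number. On both TPM scales Acp1 turned to 0.12 in SFSN-EC (adjusted p = 0.043 and 0.0441, limma) and 0.16 in SFSN-TC (0.00742 and 0.00766), and Cttn to 0.05 in SFSN-TC (0.652 and 0.653). The cause was not tested. Of 1860 list counts 143 moved by over 1.5 times. Depth limits Dcstamp and Calcr, which were not tested, and Atp6v0d2, with 8 to 24 counts per SFSN library.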
